A study of Rattus norvegicus with 6 samples.

Results

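The genes described here encode the proteins of the cytosolic ribosome, measured in rat primary beta cells with and without knockdown of Nova1. Members were chosen by name alone: every gene name in the deposited assembly that begins with Rpl or Rps and a digit, or with Rplp and a digit, together with Rpsa, without the Rps6 kinases. The rule found 147 gene models (a locus together with a gene name) under 97 names, out of 24579 models in all. Of 77 canonical names of ribosomal proteins, 75 were among them, while Rpl7a and Rpl28 matched no name in the assembly. The canonical names held 125 of the models, listed paralogs held 8, and the other 14 were mostly names of copies (Rpl12-ps1, Rps15al1 and the like) but also Rps19bp1, a binding protein of Rps19 that the name rule takes in.

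Beta cells make and secrete the insulin of the pancreatic islet, and here they were sorted by FACS in 3 batches. In each batch the knockdown cells received 30 nM of an siRNA against Nova1, a neuronal RNA-binding protein that regulates splicing, and the control cells received AllStars Negative Control siRNA at the same concentration. Both were transfected for 16 h with Lipofectamine RNAiMAX and cultured for another 48 h. Poly(A) RNA was sequenced, giving 3 knockdown and 3 control libraries. The labels do not tie a batch to an animal, and p-values measure only the spread between these batches. The RNA kit favours molecules longer than 200 nucleotides, per the labels' protocols. The members tested had a median transcript length of 499 nucleotides, and an effect of the kit on them was not tested.

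Ribosomal proteins form the small and large subunits together with ribosomal RNA, and nearly every protein is present once per ribosome. In mammals nearly all of their mRNAs begin with a C followed by a run of pyrimidines, the 5′ terminal oligopyrimidine (TOP) tract, through which mTOR and the RNA-binding protein Larp1 adjust their translation. Many have processed pseudogenes whose sequence is close to that of the parent mRNA, so a read can fit several loci. A beta cell spends much of its protein synthesis on proinsulin.

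The TOP tract can be seen in the reference promoters of the family, and 8 stretches are shown to let the tracts be compared: 2 of the most abundant mRNAs (Rplp1, Rpl10), examples with a tract of a different length (Rps14, Rpl19, Rpl10a, Rpl34), and 2 genes whose level is taken up under the knockdown comparison (Rpl22l1, Rpl13a). Each is RefSeq sequence on GRCr8, 5′ to 3′ on the strand of the gene, with 30 bases before the annotated start and 20 from it. Capitals mark an unbroken pyrimidine run that begins with C at the annotated start, where at least 4 more pyrimidines follow that C.
Rplp1 at chr8:71290853-71290902, minus strand: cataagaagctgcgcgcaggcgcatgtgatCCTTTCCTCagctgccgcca
Rpl10 at chrX:157205820-157205869, plus strand: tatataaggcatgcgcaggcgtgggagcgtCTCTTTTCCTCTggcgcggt
Rps14 at chr18:56498230-56498279, plus strand: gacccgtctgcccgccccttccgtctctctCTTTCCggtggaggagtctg
Rpl19 at chr10:83519034-83519083, plus strand: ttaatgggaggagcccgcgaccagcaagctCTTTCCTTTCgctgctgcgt
Rpl10a at chr20:6390503-6390552, plus strand: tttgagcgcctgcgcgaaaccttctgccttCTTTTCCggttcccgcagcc
Rpl34 at chr2:221962264-221962313, minus strand: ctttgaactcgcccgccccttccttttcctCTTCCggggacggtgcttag
Rpl22l1 at chr2:113683166-113683215, plus strand: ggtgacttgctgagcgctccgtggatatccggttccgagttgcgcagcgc
Rpl13a at chr1:104748894-104748943, minus strand: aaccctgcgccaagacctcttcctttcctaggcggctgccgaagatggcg

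RefSeq promoters were found for 67 of the 97 names, as 68 promoters. A run as defined above stood at the annotated start of 23 of the 68 (33.8%), against 2.63% of 33469 rat promoters. With the C allowed up to 5 bases to either side of the annotated start, the share was 58.8% of member promoters and 17.0% of all promoters. Some tracts lie just outside the marked position: the Rpl13a stretch above has a pyrimidine run shortly before its annotated start. Within 50 bases on either side of the start, CTTTCC on either strand stood in 36.8% of member promoters and 8.97% of all. CTTCCG, searched the same way, stood in 36.8% and 8.35%. These are matches of letters in a window, and no factor was measured.

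The 75 canonical genes matched were all expressed at high levels. Levels between genes are compared as RPKM, in which reads are divided by transcript length and library size, and each name is represented by its locus with the most reads. Over the 75 canonical names the mean RPKM of the 6 libraries ran between 135 and 1355 with a median of 411, against a median of 4.98 over all genes tested. The median RPKM of the 75 genes was 476, 201 and 516 in the knockdown libraries of batches 1, 2 and 3, and 467, 262 and 545 in the control libraries. Both batch 2 libraries were low, in a pattern shared by every canonical gene, and within batch 1 the knockdown median lay slightly above the control median.

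**Figure D1:**
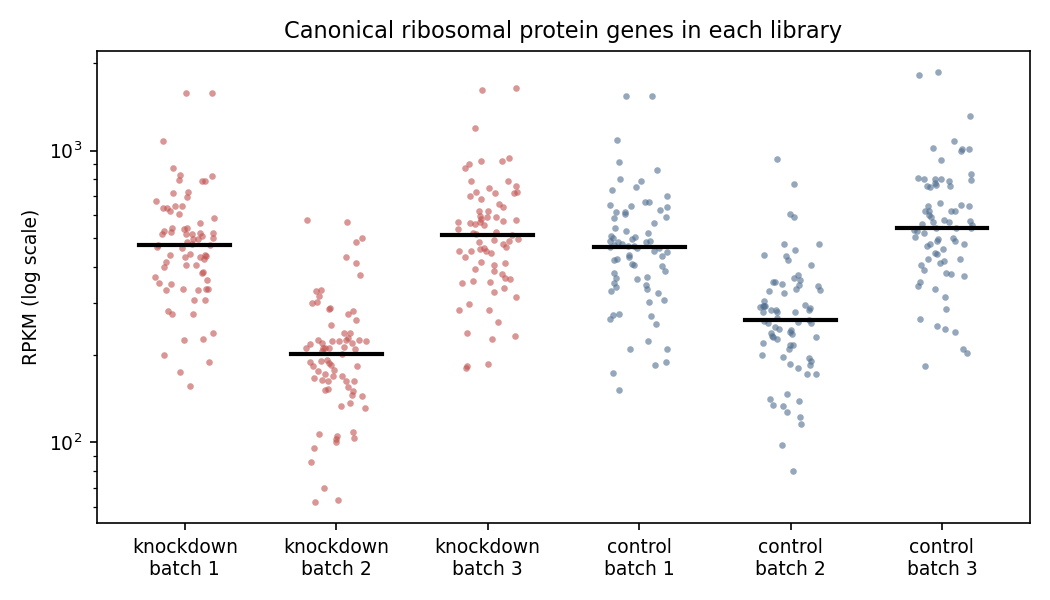
RPKM (log axis) of the 75 canonical ribosomal protein genes in each of the 6 libraries, 1 point per gene at the locus with the most reads, with the median as a bar. The medians are 476, 201 and 516 in knockdown libraries and 467, 262 and 545 in control libraries, and both batch 2 libraries sit below the rest.

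Among the most abundant was Rpl41, the smallest ribosomal protein, at 1264 ± 595 RPKM in knockdown cells and 1445 ± 466 RPKM in control cells (SD, n = 3 each). Rplp1, a protein of the acidic stalk that recruits elongation factors to the large subunit, was at 1254 ± 594 RPKM in knockdown cells and 1375 ± 541 RPKM in control cells. That locus held 56.0% to 56.9% of the Rplp1 reads, and RPLP1 on chromosome 17 averaged 893 RPKM over the 6 libraries. Rplp0, the base of that stalk, was at 727 ± 260 RPKM in knockdown cells and 760 ± 286 RPKM in control cells. Rplp2, the partner of Rplp1 in the stalk, stood lower, at 360 ± 172 RPKM in knockdown cells and 393 ± 126 RPKM in control cells. Its most-read locus held 64.0% to 65.8% of the Rplp2 reads. In each of these genes both batch 2 libraries were the lowest of their group.

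With only the most-read model of a name counted, Rpl10, RPS6 and Rps2 completed the highest 6. Rpl10, which joins the large subunit late in its assembly, was at 926 ± 371 RPKM in knockdown cells and 997 ± 369 RPKM in control cells. RPS6, the small-subunit protein phosphorylated by the S6 kinases, was at 750 ± 236 RPKM in knockdown cells and 804 ± 244 RPKM in control cells. That model held 59.7% to 62.7% of the reads of the name. Another model at the same locus, spelled Rps6, averaged 540 RPKM, so the level given is a part of the gene. Rps2, a small-subunit protein, was at 707 ± 289 RPKM in knockdown cells and 789 ± 310 RPKM in control cells. The neighbouring levels of the RPS6 model, Rps2 and Rplp0 lay well within these spreads of each other.

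The lowest was Rpl22, an RNA-binding protein of the large subunit, at 133 ± 62.1 RPKM in knockdown cells and 138 ± 52.99 RPKM in control cells. Rpl36a was at 141 ± 67.5 RPKM in knockdown cells and 160 ± 56.3 RPKM in control cells, and Rpl10a at 160 ± 44.5 RPKM in knockdown cells and 174 ± 35.4 RPKM in control cells. Rpl37a, Rpl21 and RPL12 followed, with means over the 6 libraries of 183, 185 and 195 RPKM. Of these 6 names, 4 stand at several loci, and their most-read locus held 44.9% to 51.4% of the RPL12 reads, 71.7% to 78.1% of the Rpl21 reads, 79.6% to 87.2% of the Rpl36a reads and 92.7% to 96.3% of the Rpl37a reads. The order of the 75 genes by RPKM was kept between libraries, with a Spearman coefficient over genes of 0.992 between knockdown and control of batch 3, 0.982 in batch 1 and 0.926 in batch 2. These coefficients run over genes, which are not independent replicates and share length and locus in both libraries.

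Batch 2 stood apart before any comparison of treatments. Each of the 75 canonical genes had its lowest RPKM of the knockdown group in batch 2, and each had its lowest RPKM of the control group there too. The median ratio of batch 2 to the mean of batches 1 and 3 was 0.402 in knockdown libraries and 0.526 in control libraries, while over all genes it was 1.13 in knockdown libraries and 1.10 in control libraries. Members together took 2.76%, 1.31% and 3.08% of assigned reads in the knockdown libraries of batches 1, 2 and 3, and 2.67%, 1.66% and 3.38% in the control libraries. The mean share was 2.38% ± 0.944 in knockdown cells and 2.57% ± 0.867 in control cells (SD, n = 3 each), and the ratio of knockdown to control was 1.04, 0.790 and 0.910 in batches 1, 2 and 3. In bulk RNA, fewer cells of a type and less RNA per cell cannot be told apart.

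Other measures moved with batch 2. Assigned reads came to 130251486, 95394043 and 146453308 in the knockdown libraries of batches 1, 2 and 3, and 292432076, 122637234 and 199930608 in the control libraries. The lowest total of each group was in batch 2. The control library was also the deeper of every pair, and the part of depth in the group differences was not tested. The 10 beta cell markers, all detected, summed to 484816, 220237 and 461940 RPKM in knockdown libraries and 458342, 295413 and 480474 RPKM in control libraries. The 6 alpha cell markers, all detected and led by Gcg, summed to 6479, 14274 and 9229 RPKM in knockdown libraries and 4739, 12661 and 7096 RPKM in control libraries. Beta cell markers were thus lowest and alpha cell markers highest in batch 2 of both groups. Some marker sums also differed between the groups in the same direction in every batch, and others did not. Stellate and fibroblast markers summed to 24.9, 32.0 and 32.7 RPKM in knockdown libraries and 10.2, 14.3 and 22.7 RPKM in control libraries, and duct markers to 201, 134 and 178 RPKM in knockdown libraries and 155, 116 and 135 RPKM in control libraries. Acinar markers summed to 479, 341 and 169 RPKM in knockdown libraries and 630, 399 and 229 RPKM in control libraries. Knockdown was thus higher in each pair for the sums of the alpha, duct and stellate lists and lower in each pair for the acinar sum. The beta, delta, PP, macrophage and endothelial sums changed direction between batches. Delta cell markers, for example, summed to 304, 293 and 405 RPKM in knockdown libraries and 260, 348 and 386 RPKM in control libraries. Single genes could differ from their sum. The stellate sums were led by Col1a1, Sparc and Col1a2, while Pdgfra was lower under knockdown in every pair and Pdgfrb and Lum in batch 3. In the alpha list Ttr was lower under knockdown in batch 2. None of the 9 marker lists had a matched gene at 0 in all 6 libraries, and the part of these differences in the ribosomal protein levels was not tested.

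Under Nova1 knockdown the ribosomal protein genes lay slightly below control, and Rps29 had the largest difference of the canonical genes. Of 144 members tested, 1 gene model fell and 0 rose past an adjusted p of 0.05 in limma voom with batch as a block. Over all 15983 genes tested, 1.2% fell and 0.513% rose, 1.71% together. At an unadjusted p under 0.05 in the same limma fit, 23 members were lower and 0 higher, or 16.0% of members, against 11.5% of all genes lower. The estimate was negative for 130 of the 144 members (90.3%), against 49.2% of all genes. Models of the same name can share reads, so this is not a count of independent genes. The member median log2 fold change was -0.19, against 0.00 over all genes. With library totals as the scale the member median was -0.13, against 0.06 over all genes. Nova1 itself, the targeted gene, was at 7.76, 10.2 and 9.43 CPM (reads scaled to library size) in knockdown libraries and 20.6, 21.5 and 17.4 CPM in control libraries, a log2 fold change of -1.12 (SE 0.11, limma adjusted p = 0.038).

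The size of the family's difference depended on the batch. The median log2 ratio of knockdown over control was 0.04 in batch 1, -0.50 in batch 2 and -0.17 in batch 3, while the median of all genes was 0.02, -0.01 and 0.00. All 75 canonical genes had a negative ratio in batches 2 and 3, but 24 of 75 did in batch 1. Over all genes, the ratio was negative for 46.8%, 51.5% and 49.8% in batches 1, 2 and 3. Of the 144 members, 42 were negative in all 3 batches, or 29.2%, against 24.3% of all genes. Scaled CPM of every knockdown library lay below every control library for 3 members (RPS29 on chromosome 3, Rps4y2 and Rpl10a-ps2), or 2.08%, against 4.1% of all genes. Without batch 2 the member median was -0.05 and 0 members passed the threshold in limma, with 7 lower (4.86%) and 1 higher at an unadjusted p under 0.05, against 8.78% of all genes lower in that fit. Without batch 1 the median was -0.31, and the 1 member called was Rpl7l1 (0.694%), with 0.0192% of all genes falling in that fit. At an unadjusted p under 0.05 in the same limma fit, 89 members were lower (61.8%) and 1 higher, against 9.57% of all genes lower. Leaving out batch 3 gave 14 lower (9.72%) and 1 higher in limma, against 8.47% of all genes lower.

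**Figure D2:**
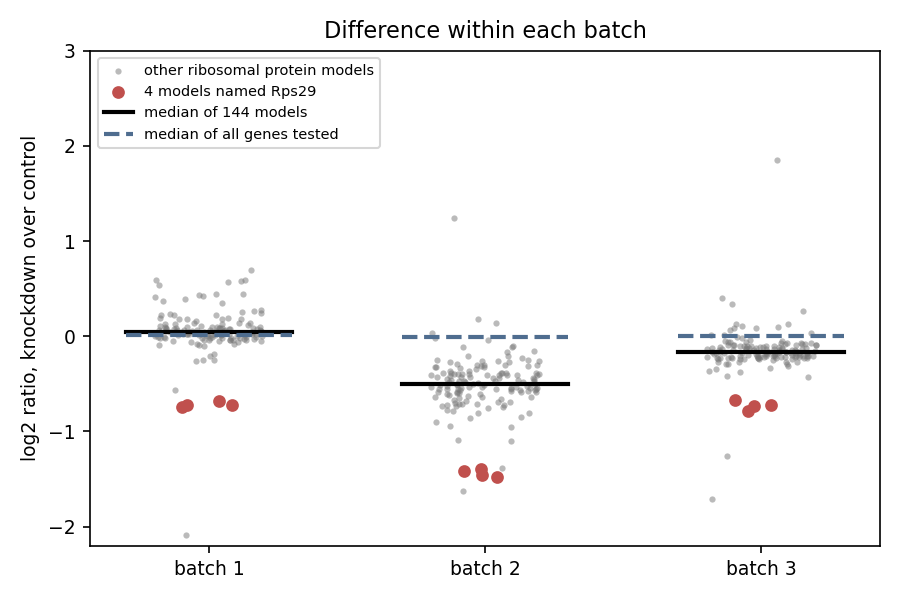
Log2 ratio of knockdown over control in each batch for the 144 ribosomal protein gene models tested, with the 4 models named Rps29 in colour, the median of the models as a solid line and the median of all genes as a dashed line. The family median is 0.04, -0.50 and -0.17 in batches 1, 2 and 3, and the Rps29 models lie below it in each.

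Both subunits showed similar values. The 44 canonical large-subunit genes had a median log2 fold change of -0.20 and the 31 small-subunit genes -0.21. The fold change was negative for 74 of the 75 genes, against 49.2% of all genes. The exception was Rps9 at 0.02 (SE 0.18, limma adjusted p = 0.97). Rps9, a small-subunit protein, had 369, 201 and 316 RPKM in knockdown libraries and 254, 219 and 373 RPKM in control libraries, so that the knockdown library was higher in batch 1 and lower in batches 2 and 3. This model held 57.7% to 68.6% of the reads of its name. Another model at the same locus, spelled RPS9, was at 0.08 (SE 0.06, limma adjusted p = 0.46). Its log2 ratios were 0.19, 0.14 and -0.07 in batches 1, 2 and 3. Genes with a TOP run at the annotated start (23) had a median of -0.19 and those without (37) had -0.20. This split does not separate TOP mRNAs from others, since some tracts lie just outside the annotated start, as in Rpl13a. Of 61 canonical promoters, 23 had a run at the annotated start and 39 had one in the wider window used above. Whether TOP mRNAs differ from other members was therefore not tested.

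**Figure D3:**
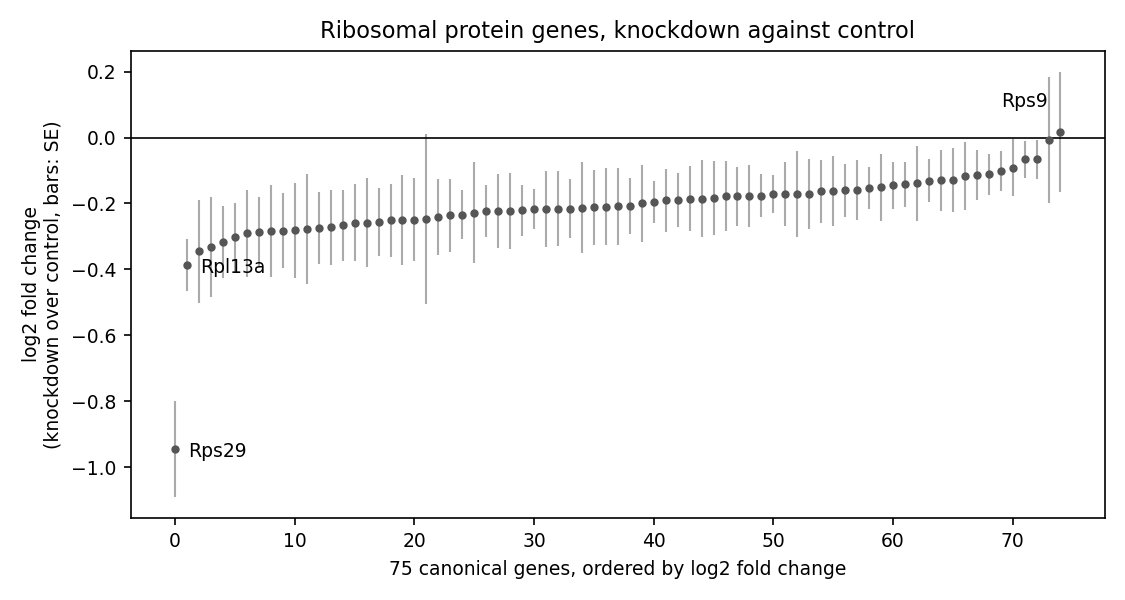
Log2 fold change of knockdown over control (limma voom, bars are SE) for the 75 canonical ribosomal protein genes, ordered by size. Rps29 lies at -0.95, Rpl13a follows at -0.39, and 74 of the 75 estimates are below 0.

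Ribosomal protein mRNAs are short, and short mRNAs of other kinds lay lower in the same batches. The median transcript length was 499 nucleotides over the members tested and 2389 over all genes. Members of at most 500 nucleotides had median log2 ratios of 0.05, -0.57 and -0.17 in batches 1, 2 and 3, and genes of that length outside the family had 0.02, -0.42 and -0.11. Between 500 and 1000 nucleotides, members had 0.03, -0.42 and -0.17 and the other genes -0.02, -0.22 and -0.13. Other genes over 4000 nucleotides lay on the other side of 0, at 0.02, 0.08 and 0.17. Across the 75 canonical genes, length and log2 ratio had a Spearman coefficient of 0.71 in batch 2, -0.07 in batch 1 and -0.14 in batch 3; over all genes it was 0.37, 0.04 and 0.34 in the same order of batches.

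After a correction for length within each library, the member median was -0.05. The 4 models named Rps29 and Rpl13a then fell past the threshold, 5 of 144 members (3.47%), with 2.68% of all genes falling in that fit. At an unadjusted p under 0.05 in the same limma fit, 16 members were lower (11.1%) and 6 higher (4.17%). Over all genes, 13.2% were lower and 11.3% higher. The median without the correction was -0.19, and the part of length in single genes was not tested.

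**Figure D4:**
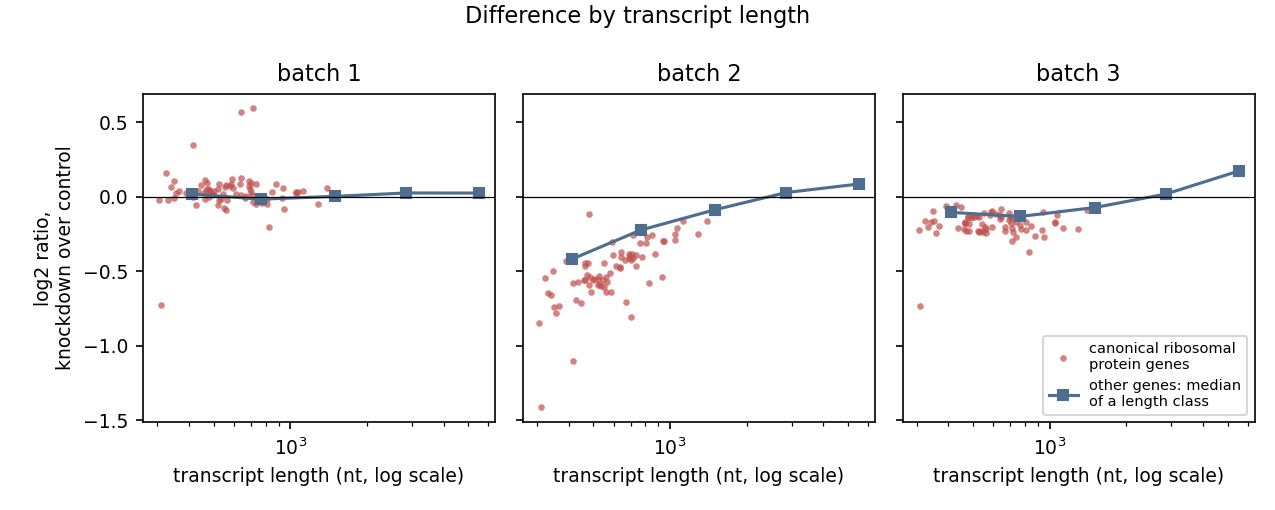
Log2 ratio of knockdown over control against transcript length (nucleotides, log axis) in each batch, for the 75 canonical ribosomal protein genes (points) and for the median of other genes in 5 length classes (squares). In batch 2 the ratio is lowest for the shortest genes of both kinds, and in batch 1 the other genes lie near 0 at every length.

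Rps29, a zinc-binding protein of the small-subunit head, was the canonical gene furthest from the family median. Its most-read locus, Rps29 on chromosome 6 (Rnor_5.0 chr6:100914108-100915476, minus strand, 3 exons), had 522, 189 and 582 RPKM in the knockdown libraries of batches 1, 2 and 3, against 857, 477 and 928 RPKM in the control libraries. The knockdown library was the lower of the pair in every batch, while the groups overlapped because control batch 2 lay below knockdown batches 1 and 3. The log2 fold change was -0.95 (SE 0.14), a change of -48.1% in level, and it missed the threshold in limma at an adjusted p of 0.052. Its log2 ratio was -0.73, -1.41 and -0.73 in batches 1, 2 and 3, so that in batch 1, where the family median was 0.04, it was as low as in batch 3.

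Copies with the same name gave the same picture. RPS29 on chromosome 13 (chr13:95847432-95847742, plus strand, 1 exon) had 43.8, 29.8 and 73.0 RPKM in knockdown libraries and 72.7, 73.9 and 121 RPKM in control libraries. This model fell, with a log2 fold change of -0.93 (SE 0.13, limma adjusted p = 0.046); the adjusted p was 0.16, 0.15 and 0.059 without batch 1, 2 or 3, and the estimate ran from -1.03 to -0.76. RPS29 on chromosome 7 (1 exon) was at -0.86 (SE 0.15, limma adjusted p = 0.063) and RPS29 on chromosome 3 (1 exon) at -0.86 (SE 0.16, limma adjusted p = 0.068). The 4 models can share reads, so they are not 4 measurements, and the most-read locus held 80.1% to 87.8% of the reads of that name. Summed over the 4 loci, Rps29 had a log2 fold change of -0.96 (SE 0.15, limma adjusted p = 0.051).

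**Figure D5:**
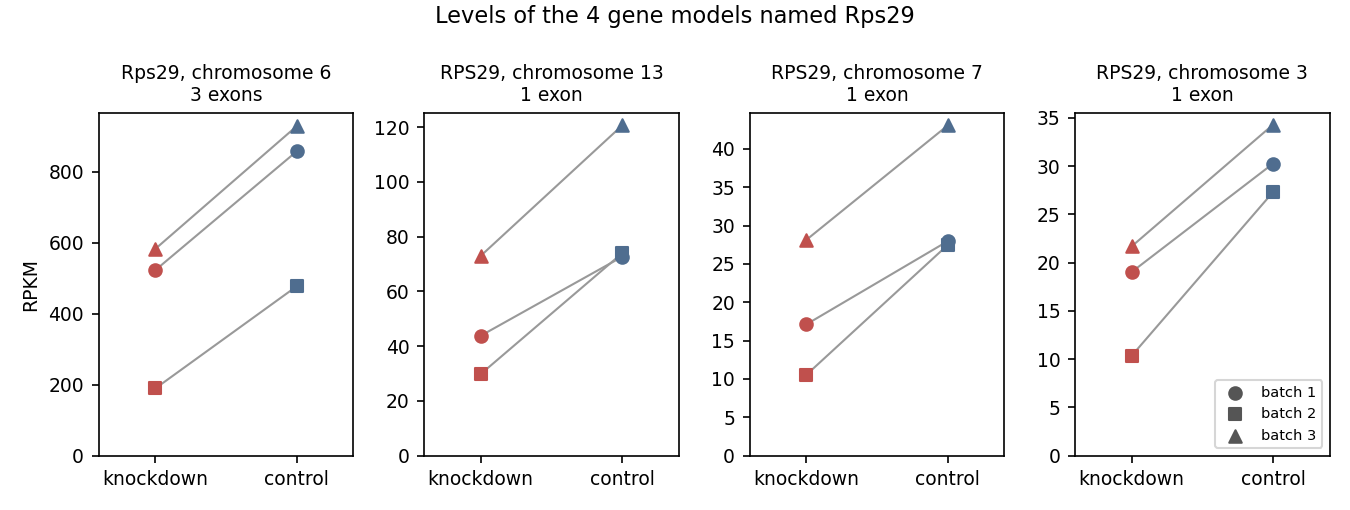
RPKM of the 4 gene models named Rps29 in each library (axes start at 0 and differ between panels), with lines joining the knockdown and control libraries of a batch. The knockdown library is the lower of each pair in all 4 models, for example 522, 189 and 582 against 857, 477 and 928 RPKM on chromosome 6.

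Rps29 reads were also set against those of the rest of the family. Reads of the 4 Rps29 models came to 0.679%, 0.593% and 0.726% of the reads of all other members in knockdown libraries, against 1.15%, 1.17% and 1.07% in control libraries. The mean was 0.666% ± 0.0677 in knockdown cells and 1.13% ± 0.0554 in control cells (SD, n = 3 each), with every knockdown library below every control library. Rpl13a and Fau, taken up below, showed no overlap on this measure either. How many other members or genes share that trait was not counted, so it cannot be called particular to Rps29. On scaled CPM, every knockdown library lay below every control library for 2.08% of members and 4.1% of all genes. With the reads of the other members as the scale, a choice made after the values were seen, 4 members fell past the threshold in limma, and 0.35% of all genes did; this scale moves the median of all genes up by 0.19. Among them were Rps29 on chromosome 6 at -0.77 (SE 0.20, limma adjusted p = 0.012), RPS29 on chromosome 13 at -0.78 (SE 0.20, limma adjusted p = 0.0082) and RPS29 on chromosome 7 at -0.74 (SE 0.21, limma adjusted p = 0.024). RPS29 on chromosome 3 was at -0.74 (SE 0.23, limma adjusted p = 0.055). In this fit the SE was 0.20 for both Rpl22l1 and Rpl7l1, against 0.05 and 0.44 in the main fit. Its p-values thus rest on a spread pooled over genes, and hardly on the spread of a single gene between batches.

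The canonical genes that followed Rps29 in size lay much closer to the family. Rpl13a, a large-subunit protein also known in human cells as a regulator of inflammatory mRNA translation, had 564, 253 and 641 RPKM in knockdown libraries and 617, 355 and 749 RPKM in control libraries. Its knockdown library was the lower in each batch, the groups overlapped, and the log2 fold change was -0.39 (SE 0.08, limma adjusted p = 0.078). As a share of the reads of the members without Rps29, Rpl13a was at 1.54%, 1.60% and 1.62% in knockdown libraries and 1.82%, 1.78% and 1.85% in control libraries, with no overlap. Rpl38, a large-subunit protein needed in mice for translation of Hox mRNAs, had 497, 167 and 468 RPKM in knockdown libraries and 500, 284 and 524 RPKM in control libraries. Its groups overlapped, with nearly equal values in batch 1 and a log2 fold change of -0.35 (SE 0.16, limma adjusted p = 0.25).

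Rpl41 was at -0.33 (SE 0.15, limma adjusted p = 0.26), Rpl24 at -0.32 (SE 0.11, limma adjusted p = 0.17) and Rps18 at -0.30 (SE 0.10, limma adjusted p = 0.17). Rpl24, a large-subunit protein near the interface with the small subunit, had 335, 133 and 388 RPKM in knockdown libraries and 353, 197 and 441 RPKM in control libraries. Rps18, a protein of the small-subunit head, had 637, 212 and 702 RPKM in knockdown libraries and 666, 305 and 792 RPKM in control libraries. In both genes the knockdown library was the lower of every pair, by little in batch 1 and most in batch 2. Of the stalk genes, Rplp0 lay above the family median and Rplp1 and Rplp2 below it, with log2 fold changes of -0.11 for Rplp0 (SE 0.06), -0.25 for Rplp1 (SE 0.11) and -0.26 for Rplp2 (SE 0.13), none past the threshold in limma at adjusted p of 0.33, 0.25 and 0.30.

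Several ribosomal proteins have a paralog encoded elsewhere, and these gave the widest range of levels in the family. Rpl22l1, the paralog of Rpl22, had 60.3, 48.6 and 72.8 RPKM in knockdown libraries and 73.3, 59.2 and 87.9 RPKM in control libraries. It was lower in the knockdown library of each batch, by a similar amount in all 3 (log2 ratios of -0.25, -0.39 and -0.33), and its log2 fold change was -0.32 (SE 0.05, limma adjusted p = 0.058). Rpl22l1 stood at 38.7%, 77.5% and 40.3% of the RPKM of Rpl22 in knockdown libraries and at 48.5%, 74.2% and 48.0% in control libraries. The paralog was thus nearest to its parent in batch 2 of both groups, and in that batch the knockdown library had the higher share.

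Rpl36al was the only listed paralog above its parent, in all 6 libraries, at 174%, 249% and 167% of the RPKM of Rpl36a in knockdown libraries and 180%, 236% and 163% in control libraries. Rps27l, a target of p53 in human cells, stood at 13.4%, 24.5% and 13.3% of Rps27 in knockdown libraries and 13.7%, 19.4% and 12.4% in control libraries. Its log2 fold change was -0.11 (SE 0.08, limma adjusted p = 0.43). The remaining paralogs were far below their parents: Rps4y2 at 1.07% to 2.50% of RPS4X, Rpl10l at 0.228% to 1.54% of Rpl10, and Rpl39l at 0.22% to 0.44% of Rpl39 over the 6 libraries. Rpl3l, known as a form of striated muscle, was listed at 0 in all 3 control libraries and in 1 knockdown library, with at most 0.0228 RPKM in the others.

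Rpl7l1, the paralog of Rpl7, varied most between batches. It had 26.9, 10.1 and 3.52 RPKM in knockdown libraries and 22.2, 30.4 and 11.3 RPKM in control libraries. Knockdown was higher in batch 1 and lower in batches 2 and 3, and the groups overlapped. The log2 fold change of -0.83 (SE 0.44) missed the threshold in limma at an adjusted p of 0.31, and without batch 1 it was -1.66 (limma adjusted p = 0.030). On the scale of the other members, chosen after the values were seen, it was at -0.81 (SE 0.20, limma adjusted p = 0.0049), although batch 1 went the other way. That p-value rests on a spread pooled over genes, and hardly on the spread of Rpl7l1 between batches. Of the 8 members below -0.5, 4 were the Rps29 models and Rpl7l1 was another, while Rpl10a-ps2, Rpl12-ps1 and Rpl31l20 each averaged under 1 RPKM. The largest positive estimate also belonged to a scarce copy, Rps15al1, with 0.673, 0.932 and 1.63 RPKM in knockdown libraries and 0.692, 0.367 and 0.428 RPKM in control libraries. Its groups overlapped, and its log2 fold change of 1.01 (SE 0.44) did not pass the threshold in limma at an adjusted p of 0.24.

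Names with several gene models made up much of the family. Of the 97 names, 68 had 1 model and 29 had several, 79 models in all, with Rpl39 at 8 loci, Rpl35a and Rpl38 at 6 each, and Rps29 at 4. For 2 of the 29 names, Rps6 and Rps9, the models lie at the same locus under different spellings and are not copies elsewhere. In 28 of the 29 names the model with the most reads had several exons, and of the 50 other models 42 had a single exon, the form of a processed copy. The most-read locus held 91.6% to 94.3% of Rpl39 reads and 81.1% to 84.8% of Rpl38 reads, but 28.0% to 30.0% of Rpl35a reads. Several pairs of loci had near-identical values. A pair of RPL8 loci on chromosome 7 differed by at most 0.0344% in RPKM in any library, Rps19 on chromosomes 1 and 9 by at most 1.82%, and a pair of RPL35A loci on chromosome 12 by at most 2.29%. Levels and fold changes of such single loci are uncertain, and summing reads by name left 0 of 95 names past the threshold in limma, with 15 lower (15.8%) and 0 higher at an unadjusted p under 0.05. Over all 15666 names, 1.81% passed the threshold and 11.8% were lower at the unadjusted p.

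No change in the use of member transcripts passed the test. The 147 models held 205 transcripts, of which 55 were new splice combinations in the assembly, and 34 models had several. Of 84 member transcripts tested with limma diffSplice, 0 passed an adjusted p of 0.05 and 10 had an unadjusted p under 0.05, against 0.302% of all transcripts called and 9.01% at the unadjusted threshold. The smallest adjusted p was 0.25, for the main transcript of Rps27l, which held 76.1%, 47.9% and 68.8% of the RPKM of its gene in knockdown libraries and 72.3%, 42.5% and 59.9% in control libraries. It was higher in the knockdown library of every batch, and the groups overlapped.

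Control batch 3 stood apart in several of these shares. Rps24, a small-subunit protein whose last exons are alternative, was divided between a transcript (chr16:752366-754836) at 63.2%, 57.7% and 54.5% in knockdown libraries and 64.3%, 65.7% and 2.63% in control libraries, and another (chr16:753187-757004) at 36.0%, 34.6% and 33.0% in knockdown libraries and 34.9%, 33.0% and 91.5% in control libraries. Both Rpl34 and RPS4X had a transcript listed at 0 in control batch 3 that held 68.4% to 73.2% of Rpl34 and 57.0% to 96.1% of RPS4X in the other control libraries. Without batch 3, 0 member transcripts passed the test too. An exact 0 in such estimates can be a failed division of reads between overlapping transcripts.

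Other genes of the protein synthesis machinery are given by list, to be read beside all genes, of which 0.513% rose and 1.2% fell, and 12.4% were higher and 11.5% lower at an unadjusted p under 0.05. Fau and Gnb2l1 are ribosomal protein genes that carry other names, and neither passed the threshold in limma. Fau, which encodes Rps30 fused to a ubiquitin-like protein, had 231, 78.3 and 239 CPM in knockdown libraries and 268, 138 and 310 CPM in control libraries. Its log2 fold change was -0.46 (SE 0.12, limma adjusted p = 0.11), with overlapping groups. Set against the reads of the members without Rps29, Fau showed no overlap. That share was 0.806%, 0.684% and 0.762% in knockdown libraries and 0.959%, 0.893% and 0.870% in control libraries. Gnb2l1, the scaffold protein Rack1 of the small subunit, was at -0.20 (SE 0.06, limma adjusted p = 0.14).

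Of 21 elongation and termination factors tested, 0 passed the threshold in limma, with 2 higher and 2 lower at an unadjusted p under 0.05 and a median log2 fold change of -0.06. The smallest p values of the list belonged to Eif5a2, a paralog of the elongation factor Eif5a, at -0.50 (SE 0.09, limma adjusted p = 0.065), and to Eef2k, the kinase of Eef2, at 0.27 (SE 0.07, limma adjusted p = 0.12). Eef2, the translocation factor and itself a TOP mRNA, was at 0.00 (SE 0.05, limma adjusted p = 0.99). Of 18 other TOP mRNA models, 0 passed, with 0 higher and 3 lower at the unadjusted threshold and a median of -0.07. Of 83 ribosome biogenesis genes 0 passed, with 6 higher and 8 lower unadjusted and a median of 0.01, and of 32 genes of mTOR and TOP mRNA control 0 passed, with 3 higher and 3 lower unadjusted and a median of 0.02. The smallest unadjusted p values of the last pair of lists belonged to Pno1, a small-subunit assembly factor, at -0.32 (SE 0.06, limma adjusted p = 0.062), and to Larp4, a poly(A)-binding La-related protein, at 0.31 (SE 0.06, limma adjusted p = 0.063).

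Mitochondrial ribosomal proteins, which serve a separate ribosome, had a median of -0.12 over 77 models, with batch medians of -0.03, -0.30 and -0.13 and a median length of 1032 nucleotides. Negative estimates were found for 70 of the 77 (90.9%), against 49.2% of all genes. At an unadjusted p under 0.05 in limma, 22 were lower (28.6%) and 0 higher, beside 16.0% of the cytosolic members lower. Of the 77, 1 fell, Mrpl13 at -0.53 (SE 0.07, limma adjusted p = 0.046), and 0 rose. Among 20 tested p53 targets that respond to ribosomal stress in other cells, 2 rose and 1 fell. Cdkn1a, a cell cycle inhibitor, rose by 0.47 on the log2 scale (SE 0.06, limma adjusted p = 0.045). Tp53inp1, a stress-induced p53 cofactor, rose by 0.54 (SE 0.07, limma adjusted p = 0.046), and Perp, an adhesion protein, fell by 0.91 (SE 0.07, limma adjusted p = 0.036). The median of that list was 0.13, with 7 higher and 3 lower at an unadjusted p under 0.05.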

How the data were processed

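The authors deposited an assembly and, per the file contents, 3 text attributes for each transcript and library: estimated counts of reads, transcript length, and RPKM. TopHat and the rat build Rnor_5.0 are named in the submitters' processing notes; which program assigned reads to transcripts, and whether it used strand, is not given in the sources used here. Reads were summed by locus and gene name. Scaling used trimmed M values (trims of 30% for M and 5% for A). A gene was kept with at least 10 reads, at median depth, in 3 or more libraries and at least 15 reads in total, which left 15983 genes. Since read values exist here only inside text attributes, limma 3.58.1 (R 4.3.3) with voom took the place of a count model, with batch as a block, 2 residual degrees of freedom and Benjamini-Hochberg adjustment over all genes. Transcripts were tested with diffSplice on 31429 transcripts, and the procedure was tested on simulated data. Batch numbers in the titles pair the libraries; deviations from group means correlated within a pair at 0.38, 0.72 and 0.55. The members and all lists were chosen with earlier results of these data known. Genes named are those called, the 6 canonical genes at each end of fold change and of RPKM, listed paralogs, the stalk genes, Rps24, the names with most loci, and up to 4 called genes of a list or otherwise those with the smallest p; Rpl34, RPS4X, Rpl10a-ps2, Rpl12-ps1, Rpl31l20, Rps15al1 and the near-identical pairs were chosen after their values were seen. Length correction removed a lowess curve (span 0.3) on log2 length in each library. The curve was fitted to the difference between the log2 CPM of a gene and its mean over the libraries. Other alternatives were no block, each batch left out, library totals or median of ratios scaling, no filter or one 5 times stricter, and limma-trend on log2(RPKM + 1) or log2(RPKM + 0.1). Some genes that these rules take are not reported here.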

Additional observations from a re-analysis of the deposited data

How the results depend on the processing

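The 1 member called became 0 with the replicate block left out, with library totals as the scale, with the filter 5 times stricter, and with limma-trend on log2(RPKM + 1) or log2(RPKM + 0.1); it became 5 with the length correction and 4 on the scale of the other members, an alternative added after seeing the data. Leaving out a batch gave 0 to 1. The model lost, RPS29 on chromosome 13, stayed between an adjusted p of 0.051 and 0.16 in the fits with a block that lost it, and its fold change kept its sign in every alternative run. At an unadjusted p under 0.05 in limma, 1 member was lower without the block (0.694%, and 1.75% of all genes), 14 with library totals (9.72%, and 7.06% of all genes), 22 with the stricter filter (15.7%, and 12.7% of all genes) and 14 in either limma-trend fit (9.72%, and 7.46% or 7.37% of all genes for a pseudocount of 1 or 0.1). The 274 genes called over the whole table became 0 without the replicate block and in both limma-trend fits, 0 to 63 with a batch left out, 91 with library totals, 174 without the filter, 119 with the stricter filter and 584 with the length correction. For reads summed by name, the 0 called became 1 with library totals and 1 without the filter, and 0 to 1 with a batch left out. The member median log2 fold change was between -0.31 without batch 1 and -0.05 in the other alternatives run; the scale of the other members sets it near 0 by construction. Of 18 named genes, 4 changed sign in a single alternative: Rplp0 to 0.075, Rpl10 to 0.013 and RPS6 to 0.00076 on the scale of the other members, and Rps9 to -0.27 without batch 1. The scale of the other members moves all genes up alike, by 0.19 at the median, which gives its 3 sign changes. The cause of the other shifts was not tested. Depth limits the values of the copies under 1 RPKM.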
